A study of Mus musculus with 2 samples.

Results

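The genes described here encode ligands and receptors of the epidermal growth factor (EGF) family. They were chosen by symbol and comprise 7 ligands (Areg, Ereg, Hbegf, Egf, Tgfa, Btc and Nrg2) and 3 receptors (Egfr, Erbb2 and Erbb3). All 10 were listed in both libraries, out of 32285 listed genes. Single cells of whole uteri from 6-month-old female mice were profiled by droplet RNA sequencing of transcript 3′ ends. The control library came from mice titled Prickle1 f/f, which carry the floxed gene. The other library, called cKO here, came from mice titled Prickle1 f/f Ltf-cre, which carry the same floxed alleles and a Cre recombinase driven from Ltf. Ltf encodes lactoferrin, which is made by uterine epithelium and also stored by neutrophils, so the driver limits which cells lose the floxed gene. The genotype field of both samples reads C57BL/6J wild-type; groups here follow the titles. Each library pooled 3 mice, so there was 1 library per group, no comparison has a replicate check, and genotype cannot be told apart from animals, dissociation or library preparation.

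EGF family ligands are made as membrane-bound precursors that metalloproteases release from the cell surface, and they bind receptor tyrosine kinases that act in pairs. EGFR binds EGF, TGF-alpha, amphiregulin (Areg), epiregulin (Ereg), betacellulin (Btc) and HB-EGF (Hbegf), whereas neuregulins bind ERBB3 and ERBB4. ERBB2 binds no known ligand and ERBB3 has little kinase activity, so both signal mainly as partners. In the mouse uterus, HB-EGF is known for its appearance in luminal epithelium at the site of the implanting blastocyst and amphiregulin for its induction by progesterone, and EGFR is known for its role in the stroma as it decidualizes.

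Counts are unique molecular identifiers (UMIs), each standing for 1 captured transcript. The control library held 3653 cells with a median of 4650 UMIs and the cKO library 4950 cells with a median of 5944 UMIs, and 5 cell barcodes occurred in both. Cells were sorted into 6 classes by 1 gate gene each: Epcam (epithelial), Pdgfra (stromal), Actg2 (muscle), C1qa (macrophage), Cd3e or Ncr1 (lymphoid) and Msln (mesothelial). Levels are UMIs of a gene per 1000000 UMIs of the class (CPM), with 95% exact Poisson intervals, and all intervals cover counting error only. In each class no marker of its own fixed list was at 0 in either library. Epithelial cells made up 27.1% of control cells (991 cells, median 6438 UMIs) but 2.36% of cKO cells (117 cells, median 12692 UMIs). Of these, 968 control and 65 cKO cells also carried at least 2 further epithelial markers. In the other 52 cKO cells, 4 B or plasma cell markers summed to 10970 CPM, of which Jchain, the joining chain of secreted antibodies, gave 10890 CPM, and 8 epithelial markers summed to 208 CPM. Shares of epithelial cells are therefore also given for the 968 and 65 cells with further markers, whose median depths were 6550 and 26462 UMIs. Their epithelial markers summed to 14100 and 12460 CPM, stromal markers to 153 and 907 CPM (Dcn 85.7 and 727 CPM) and muscle markers to 43.6 and 531 CPM (Acta2 12.1 and 456 CPM), so these cells too differed in other markers, whose part in the results was not tested. Prickle1 itself gave 14 UMIs in control epithelial cells (0.761 CPM) and 6 in cKO ones (1.64 CPM, 2.16-fold with an interval of 0.679 to 5.97). It was higher in cKO stromal (38 and 247 UMIs, 2.11-fold, 1.50 to 3.06) and lymphoid cells (4 and 73 UMIs, 5.45-fold, 2.04 to 20.5). The epithelial count is too small to check the titles, and a 3′ count need not fall in the deleted part of the gene.

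RNA outside cells was read from barcodes holding at most 100 UMIs and is called the cell-free level. It was 147 CPM in control against 51.6 CPM in cKO for Hbegf, 31.8 and 3.94 CPM for Erbb3, 13.2 and 4.38 CPM for Erbb2, and 52.0 and 67.4 CPM for Egfr. The other 6 genes lay between 0.388 and 10.1 CPM. Cell-free Hbegf, Erbb2 and Erbb3 were therefore lower in the cKO library, by ratios of 0.352, 0.332 and 0.124. Their part in the differences below was not tested.

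**Figure D1:**
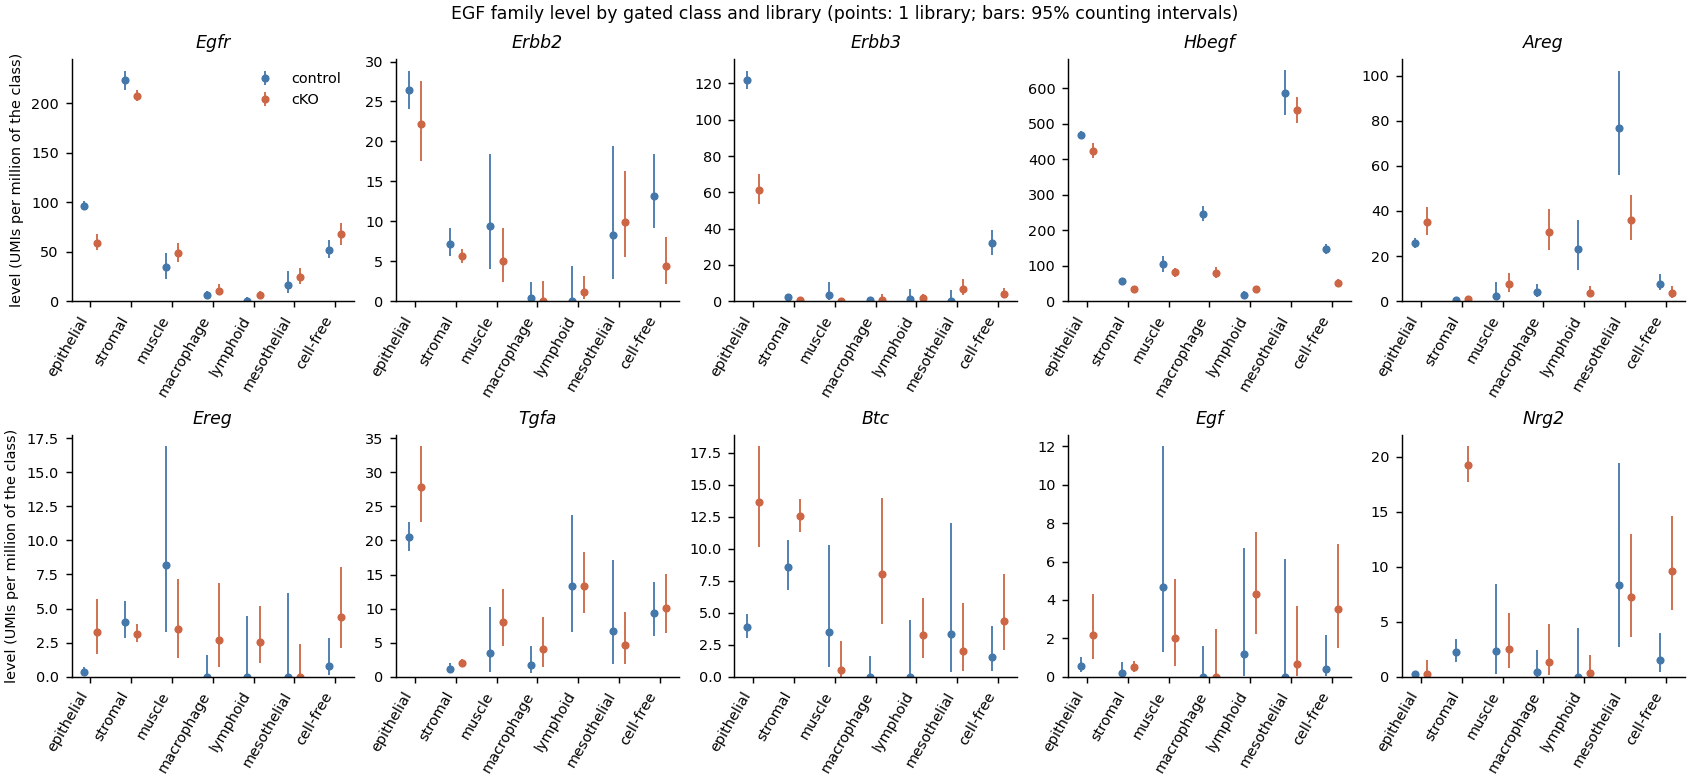
Level of each of the 10 genes (vertical axis, CPM, starting at 0) in 6 gated classes and in cell-free barcodes, for the control (blue) and cKO (orange) library; points are 1 library and bars are 95% Poisson intervals. Erbb3 stood high in epithelial cells of both libraries, Egfr in stromal and epithelial cells, and Hbegf in mesothelial and epithelial cells, while Nrg2 stood high in cKO stromal cells.

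Of the 60 combinations of gene and class, 28 held at least 20 UMIs over both libraries and were compared. A difference was called past 2-fold when the cKO to control ratio of CPM was at least 2 or at most 0.5 and its exact binomial interval left out 1. By this rule 4 were higher in cKO, 4 were lower and 20 were neither. Of all genes compared, 4.59% to 24.8% were higher and 2.58% to 8.06% lower, depending on the class. These calls have no replicate behind them. Those higher in cKO were Btc in epithelial, Nrg2 in stromal, Areg in macrophage and Hbegf in lymphoid cells, and those lower were Erbb3 in stromal, Hbegf in macrophage and Areg in lymphoid and mesothelial cells. In the mixed cells with no gate gene, which are outside these 6 classes, 4 of the 10 members were past 2-fold higher and 3 lower, against 5.72% and 10.4% of 13610 genes.

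**Figure D2:**
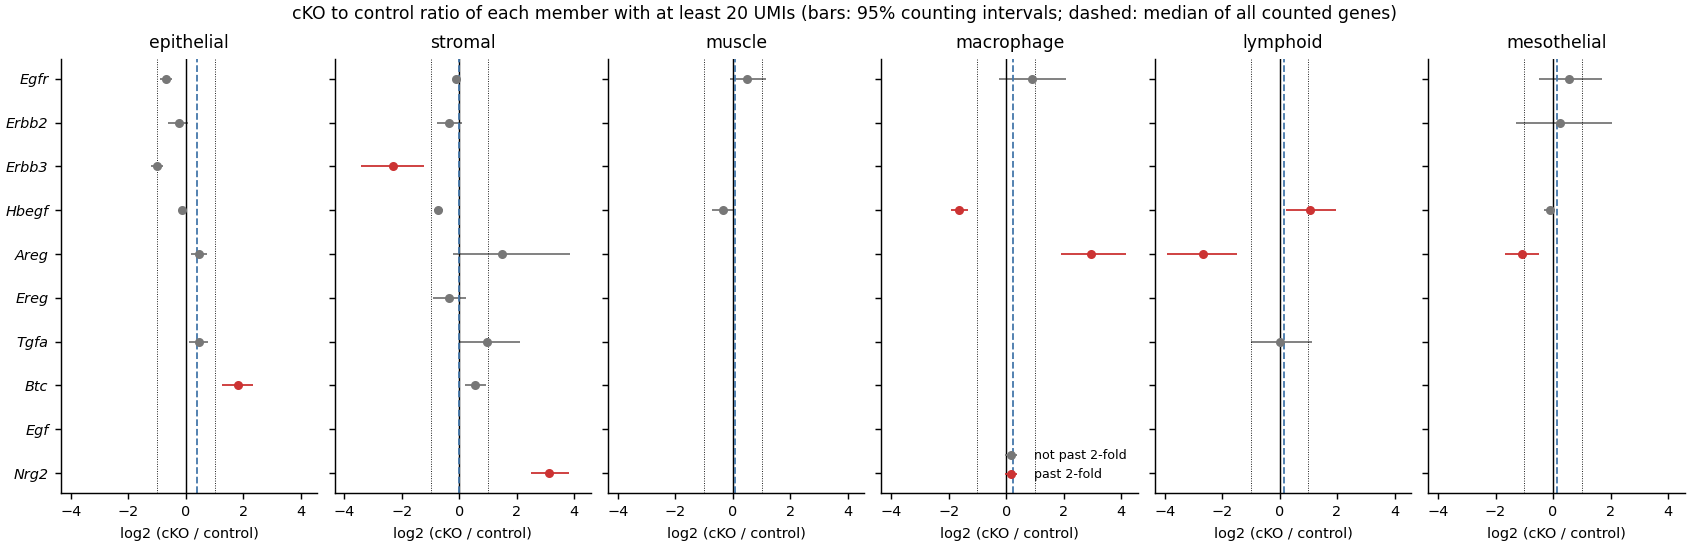
Ratio of cKO to control CPM (log2, horizontal axis) for each gene and class with at least 20 UMIs; points are ratios of 1 library to 1 library, bars are 95% intervals from counting error, red marks the 8 past 2-fold, dotted lines mark 2-fold and the dashed line the median of all counted genes in the class. Nrg2 in stromal cells and Areg in macrophage-gated cells lie farthest to the right, and Areg in lymphoid cells farthest to the left.

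Egfr encodes the receptor for most of these ligands and lies on chromosome 11 from 16752203 to 16918158 on the plus strand (GRCm38). Its level was highest in stromal cells, at 223 CPM in control (interval 214 to 233) and 208 CPM in cKO (202 to 213). Epithelial cells followed with 96.3 CPM in control (91.9 to 101) and 59.1 CPM in cKO (51.5 to 67.5). Muscle cells held 34.0 and 48.3 CPM, mesothelial cells 16.7 and 24.4 CPM and macrophages 5.72 and 10.7 CPM, all below the cell-free level of the same library, as was the cKO epithelial level. Lymphoid cells held 0 UMIs in control, which allows up to 3.62 CPM, and 6.48 CPM in cKO. In control, stromal, epithelial and muscle levels differed beyond counting error, whereas in cKO the epithelial and muscle intervals overlapped. Muscle, mesothelial, macrophage and lymphoid neighbours overlapped in control.

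The stromal level of Egfr was close in both libraries, with a cKO to control ratio of 0.930 (0.885 to 0.978), and after each cell was thinned to 1000 UMIs the share of stromal cells with a UMI was 16.7% in control and 16.6% in cKO. Macrophages, which gave 0 of 255 and 0 of 133 such cells, bound the share there at 1.18% and 2.26%. Median depth was 12623 and 16227 UMIs in stromal cells and 8503.5 and 9145 UMIs in macrophages, and the shares before thinning were 63.8% and 71.5% in stromal cells against 3.49% and 4.44% in macrophages. In epithelial cells the ratio was 0.613 (0.530 to 0.707), which did not reach 2-fold. Under 14 other settings the log2 ratio ranged from -2.50 to -0.52 and 3 passed 2-fold, the lowest in cells under 10000 UMIs (88.2 against 15.6 CPM, the latter from 4 UMIs). The share of epithelial cells with an Egfr UMI was 47.2% in control and 29.9% in cKO, and 8.33% against 2.56% after thinning. In cells with further epithelial markers the levels were 97.2 CPM in control against 67.7 CPM in cKO. There the shares were 48.2% (45.05 to 51.4) and 49.2% (36.6 to 61.9), and 8.53% and 4.62% after thinning with overlapping intervals (6.84 to 10.5 and 0.962 to 12.9). Among these cells, deeper in cKO than in control, the shares before thinning were thus close. Of all Egfr UMIs in cells, epithelial cells held 42.8% in control and 3.21% in cKO, and stromal cells 50.9% and 89.45%. These shares move with the number of cells of each class as well as with the level in them.

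The 250 bases before the RefSeq start of Egfr (chr11:16751953-16752202, plus strand, GRCm38.p6) are shown because Egfr had the most UMIs of the 3 receptors in both libraries. A GC box (GGGCGG, searched on both strands) is in capitals, as its reverse complement, close to the start.
Egfr: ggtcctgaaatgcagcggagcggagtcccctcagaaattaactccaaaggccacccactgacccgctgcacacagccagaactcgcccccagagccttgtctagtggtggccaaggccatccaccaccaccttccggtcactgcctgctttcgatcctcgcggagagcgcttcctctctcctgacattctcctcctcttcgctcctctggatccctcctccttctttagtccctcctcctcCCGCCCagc
A GC box occurs in 32.7% of 32851 RefSeq windows of the same length. The window held no cAMP response element (CRE, TGACGTCA), AP-1 site (TGACTCA) or TATA box (TATAAA).

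Erbb3, the neuregulin-binding partner receptor on chromosome 10 (128567523 to 128589652, minus strand), was an epithelial gene in both libraries. Epithelial cells held 122 CPM in control (117 to 127) and 61.25 CPM in cKO (53.5 to 69.8). The other classes held at most 3.52 CPM in control against 6.58 CPM in cKO, with intervals clear of the epithelial one. In control every one of those 5 classes lay below the cell-free level of 31.8 CPM. Epithelial cells accounted for 96.2% of Erbb3 UMIs in control cells and 83.0% in cKO cells. Of all 10 genes it was the most confined to 1 class in control.

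The epithelial ratio of Erbb3 was 0.502 (0.436 to 0.576), just short of 2-fold. It passed 2-fold under 8 of 14 other settings, and ranged from -4.16 to -0.78 on the log2 scale. The lowest value came from cells with fewer than 10000 UMIs, where the gene gave 184 UMIs in 607 control cells and 1 UMI in 51 cKO cells. In cells with at least 10000 UMIs the levels were 131 and 65.6 CPM, and in cells with further epithelial markers 123 and 71.9 CPM. After thinning, 9.65% of control epithelial cells (7.88 to 11.7) and 2.56% of cKO ones (0.532 to 7.31) had an Erbb3 UMI, against 44.2% and 30.8% before, while thinned macrophages gave 0 of 255 and 0 of 133. Among cells with further epithelial markers the shares before thinning were 45.25% in control and 53.85% in cKO (41.0 to 66.3), so the order turned, and after thinning 9.89% and 4.62%, with overlapping intervals. In the stroma the gene was called lower in cKO, at 2.225 against 0.448 CPM (ratio 0.201, 0.0926 to 0.421). Both values lay below the cell-free level of their library, which was itself lower in cKO, and 1 control cell held 10 of the 21 control UMIs. The part of cell-free RNA in this difference was not tested.

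Erbb2, the receptor with no known ligand (chromosome 11, 98412470 to 98437716, plus strand), was likewise highest in epithelial cells. It held 26.4 CPM there in control (24.1 to 28.9) and 22.15 CPM in cKO (17.6 to 27.5), a ratio of 0.839 (0.655 to 1.06). Stromal levels were 7.21 and 5.65 CPM (ratio 0.784, 0.588 to 1.06). Mesothelial cells held 8.34 and 9.88 CPM from 5 and 15 UMIs. Both ratio intervals held 1. The epithelial value moved with the setting: its log2 ratio of -0.25 fell to -1.93 after thinning, which was not called, and to -1.75 with cells weighed equally and -1.69 in cells under 10000 UMIs, which were, whereas cells with further markers held 26.65 and 26.1 CPM. The control stromal level lay below the cell-free level of 13.2 CPM, and the cKO stromal interval (4.82 to 6.58) held neither it nor the cKO cell-free level of 4.38 CPM. That cKO cell-free level rested on 10 UMIs and has a counting error of its own, so whether it differs from the stromal level was not tested. Erbb2 overlaps Mien1 on the other strand, and Egfr, Ereg, Egf and Nrg2 overlap listed antisense genes. Whether strand was used in counting is not given in the sources used here, and the part of these overlaps was not tested.

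Areg, Ereg and Btc lie side by side on chromosome 5. Together with the ligand gene Epgn they fill an interval of 375531 bases that holds no other protein-coding gene in GENCODE M21. Ereg runs from 91074622 to 91093646 and Areg from 91139599 to 91148432, both on the plus strand and 45952 bases apart. Btc follows 208828 bases further on, from 91357261 to 91402994 on the minus strand. Epgn gave 3 UMIs in all control cells and 8 in all cKO cells. The 250 bases before the RefSeq starts of Areg (chr5:91139349-91139598, plus strand) and Btc (chr5:91402995-91403244, minus strand), GRCm38.p6, are shown because the libraries differed past 2-fold in epithelial cells at Btc and not at its neighbour Areg. Capitals mark, from left to right in Areg, a CRE, a GC box and a TATA box.
Areg: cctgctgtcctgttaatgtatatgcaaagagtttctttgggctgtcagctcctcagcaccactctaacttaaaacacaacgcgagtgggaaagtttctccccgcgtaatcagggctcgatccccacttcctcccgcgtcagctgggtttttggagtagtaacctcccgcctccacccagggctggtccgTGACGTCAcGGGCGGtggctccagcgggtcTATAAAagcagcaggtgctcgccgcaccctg
Btc: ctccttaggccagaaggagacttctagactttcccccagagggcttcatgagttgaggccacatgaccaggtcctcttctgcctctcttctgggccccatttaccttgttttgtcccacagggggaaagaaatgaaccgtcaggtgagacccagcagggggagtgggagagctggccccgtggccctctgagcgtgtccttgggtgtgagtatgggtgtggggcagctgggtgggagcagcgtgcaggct
The CRE letters occur in 1.55% and the TATA letters in 12.4% of the 32851 windows. The Btc window holds none of the 4 motifs searched, of which AP-1 occurs in 4.46% of windows. Matches are letters only, and their absence says nothing of any factor. RefSeq promoters were found for 6 of the 10 genes.

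Btc, the betacellulin gene, was detected mainly in stromal and epithelial cells. Epithelial cells held 3.91 CPM in control (72 UMIs in 52 of 991 cells, interval 3.06 to 4.93) and 13.7 CPM in cKO (50 UMIs in 20 of 117 cells, 10.15 to 18.0). The ratio was 3.495 (2.39 to 5.08), which made Btc the only 1 of 7 epithelial members compared to be past 2-fold. Of 12997 genes compared in these cells, 24.8% were past 2-fold higher and 8.06% lower, so the count of 1 higher and 0 lower is not above that background. All 50 cKO UMIs came from cells with further epithelial markers, where the levels were 3.95 and 16.1 CPM. When every cell was given equal weight the log2 ratio was 0.75 in place of 1.81 and did not pass. Stromal cells held 8.58 CPM in control against 12.6 CPM in cKO (ratio 1.47, 1.15 to 1.89). Stromal cells thus exceeded epithelial cells in control, and the cKO intervals of both classes overlapped. The cell-free level was 1.55 and 4.38 CPM, and its part was not tested.

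Areg, the amphiregulin gene, was highest in mesothelial and epithelial cells and uneven from cell to cell in all classes. Epithelial levels were 25.7 CPM in control (23.4 to 28.1) and 35.3 CPM in cKO (29.45 to 41.9), a ratio of 1.37 (1.12 to 1.67). The lymphoid interval overlapped the epithelial one in control, and the mesothelial and macrophage intervals did in cKO. The epithelial UMIs came from 120 of 991 control and 22 of 117 cKO cells. The 5 richest cells held 38.3% of them in control and 73.6% in cKO. The direction was not the same at all depths: cells with fewer than 10000 UMIs held 14.4 CPM in control against 7.80 CPM in cKO, the latter from 2 UMIs, and those with at least 10000 held 27.6 and 37.4 CPM.

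Outside the epithelium, Areg differed past 2-fold in opposite directions, and each difference rested on few cells. Mesothelial cells held 76.7 CPM in control against 36.2 CPM in cKO (ratio 0.472, 0.313 to 0.714), with 46 UMIs in 3 of 39 control cells and 55 UMIs in 6 of 63 cKO cells. Of the 46, 35 were in 1 cell, and without the richest cell of each library the log2 ratio was 0.16. Dendritic cell markers in the mesothelial class summed to 612 CPM in control, 365 CPM of it Ccl22, against 84.3 CPM in cKO, and their part was not tested. Macrophages held 3.96 CPM in control from 4 of 258 cells and 30.7 CPM in cKO from 2 of 135 cells, and 40 of the 46 cKO UMIs were in 1 cell. Lymphoid cells held 22.9 CPM in control from 6 of 161 cells and 3.60 CPM in cKO from 6 of 453 cells, a ratio of 0.157 (0.0653 to 0.355). Of the 19 control UMIs 12 were in 1 cell, all 29 UMIs lay in cells with Cd3e, the T cell receptor subunit, and the cKO value was at its cell-free level of 3.501 CPM. Without the richest cell of each library, the macrophage and the lymphoid counts were both under the 20 UMIs needed.

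**Figure D3:**
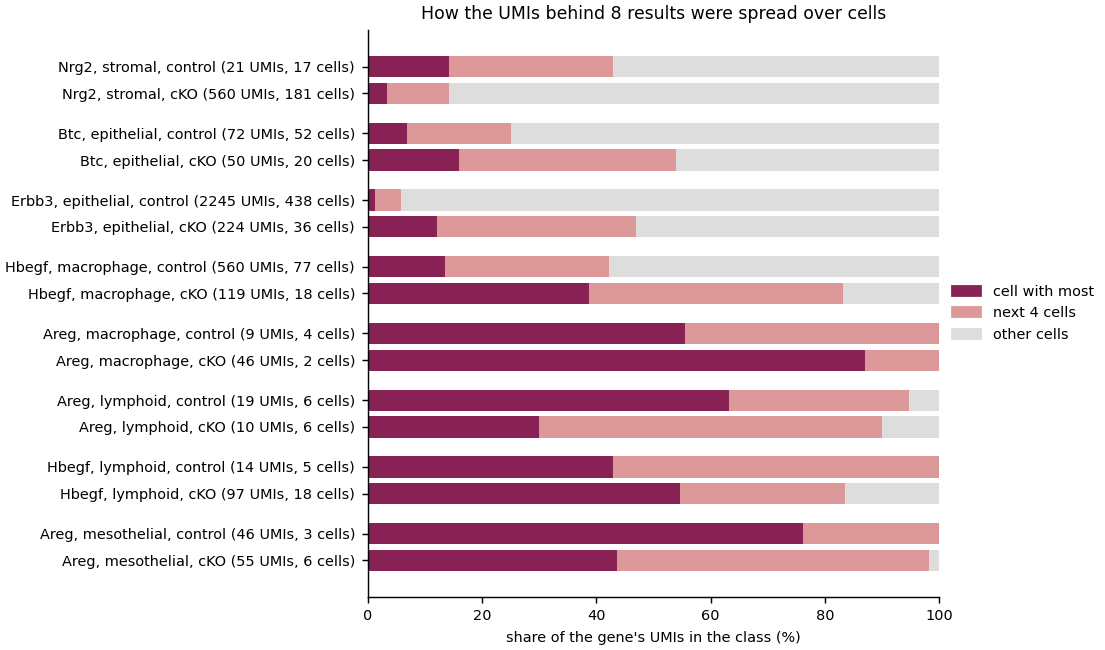
Share of a gene's UMIs in a class (horizontal axis, percent) held by the richest cell, the next 4 cells and all other cells, for 8 combinations of gene and class in both libraries, with total UMIs and carrying cells in the labels. The richest cell held 87.0% of Areg UMIs in cKO macrophage-gated cells and 3.39% of Nrg2 UMIs in cKO stromal cells.

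Ereg, the epiregulin gene, was sparse. Stromal cells held 38 UMIs in 16 control cells (4.03 CPM) and 91 UMIs in 15 cKO cells (3.135 CPM). The ratio was 0.779 (0.528 to 1.17), and 1 cell held 58.2% of the UMIs in cKO. Muscle cells gave 7 UMIs in each library and epithelial cells 6 and 12. In cKO, the levels of Ereg in stromal, muscle and epithelial cells lay below its cell-free level of 4.38 CPM.

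Egf (chromosome 3, 129677565 to 129755316, minus strand) encodes the founding ligand and is better known from kidney and salivary gland. It gave 30 UMIs in all control cells and 112 in all cKO cells, and no class held 20 UMIs over both libraries. The largest share lay in cells with no gate gene, 43.3% in control and 63.4% in cKO. Tgfa encodes TGF-alpha (chromosome 6, 86195223 to 86275719, plus strand). It was highest in epithelial cells, at 20.5 CPM in control (18.5 to 22.7) and 27.9 CPM in cKO (22.7 to 33.9), a ratio of 1.36 (1.08 to 1.70). Lymphoid cells followed with 13.3 CPM in both libraries, a ratio of 1.01 (0.502 to 2.18), and the control intervals of these classes overlapped. Cell-free levels were 9.31 and 10.1 CPM. Stromal cells held 1.06 and 2.07 CPM, and the interval of their ratio (0.991 to 4.27) did not leave out 1.

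Hbegf, the HB-EGF gene, occupies 36504927 to 36515805 of chromosome 18 (minus strand). It gave 11163 UMIs in control cells and 4821 in cKO cells. Mesothelial cells were highest, with 585 CPM in control (526 to 650) and 538 CPM in cKO (502 to 576), a ratio of 0.919 (0.810 to 1.05). Of them, 13 of 39 control and 31 of 63 cKO cells also carried a gate gene of another class. With cells of 1 gate only the mesothelial log2 ratio was -0.80, outside the counting interval. Epithelial cells held 469 CPM in control (459 to 479) and 423 CPM in cKO (402 to 444), a ratio of 0.901 (0.853 to 0.951). Both classes stood above all others in both libraries. Cells of the mesothelial class also held stromal markers (10850 and 12530 CPM summed) and epithelial markers (2044 and 1912 CPM), whose part was not tested. Dcn alone gave 9049 and 10600 CPM of the stromal sums, and the other 6 stromal markers 1800 and 1926 CPM. A UMI of Hbegf was found in 76.7% of control and 48.7% of cKO epithelial cells, and in 32.3% and 20.5% after thinning, against 1.26% and 0.667% of thinned lymphoid cells at median depths of 4240 and 4570 UMIs. In cells with further epithelial markers the levels were 471 and 486 CPM and the shares 78.2% and 81.5%, or 32.9% and 35.4% after thinning, close in both libraries. In cells under 10000 UMIs they were 498 and 215 CPM, and there the difference passed 2-fold.

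Macrophages were the class in which Hbegf differed most. They held 246 CPM in control (226 to 268) and 79.5 CPM in cKO (65.9 to 95.2), a ratio of 0.323 (0.263 to 0.394). A UMI was found in 77 of 258 control and 18 of 135 cKO macrophages; a single cKO cell held 46 of the 119 UMIs. The shares were 12.2% (8.41 to 16.8) and 3.01% (0.825 to 7.52) after thinning. The difference stayed past 2-fold in all 14 other settings, with log2 ratios from -2.11 to -1.17. The cell-free level of Hbegf differed by a similar ratio, 0.352 (0.284 to 0.434), and epithelial markers in macrophages summed to 140 CPM in control against 22.7 CPM in cKO. Markers of other cell types were higher in cKO macrophages, with stromal ones at 373 and 1020 CPM, lymphatic endothelial ones at 58.1 and 233 CPM, mast cell ones at 6.16 and 257 CPM and red blood cell ones at 9.24 and 491 CPM. The part of all these in the macrophage result was not tested. The class levels were above the cell-free level in both libraries. In cKO this was 79.5 against 51.6 CPM, with the 46 UMIs of the richest cell counted in. Of 8730 genes compared in macrophages 11.5% were past 2-fold higher and 3.3% lower, against 1 higher (Areg) and 1 lower (Hbegf) of 3 members compared.

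In the other classes Hbegf lay at or below the cell-free level of at least 1 library. Muscle cells held 103 and 80.6 CPM (ratio 0.781, 0.599 to 1.02), and Egfr there had a ratio of 1.42 (0.929 to 2.23). These were the only 2 members compared in muscle and neither was past 2-fold, against 5.98% of 9365 genes higher and 3.46% lower. Stromal cells held 57.9 and 35.0 CPM (ratio 0.604, 0.544 to 0.672). Lymphoid cells held 16.9 CPM in control from 5 cells and 34.9 CPM in cKO from 18 cells, a ratio of 2.07 (1.18 to 3.93). Of the 97 cKO UMIs 53 were in 1 cell, and the log2 ratio was -0.16 when cells were weighed equally. Of 9705 genes in lymphoid cells 6.77% were past 2-fold higher and 2.71% lower, against 1 higher (Hbegf) and 1 lower (Areg) of 3 members. In mesothelial cells 4.59% of 8718 genes were higher and 2.58% lower, against 0 higher and 1 lower (Areg) of 4 members.

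**Figure D4:**
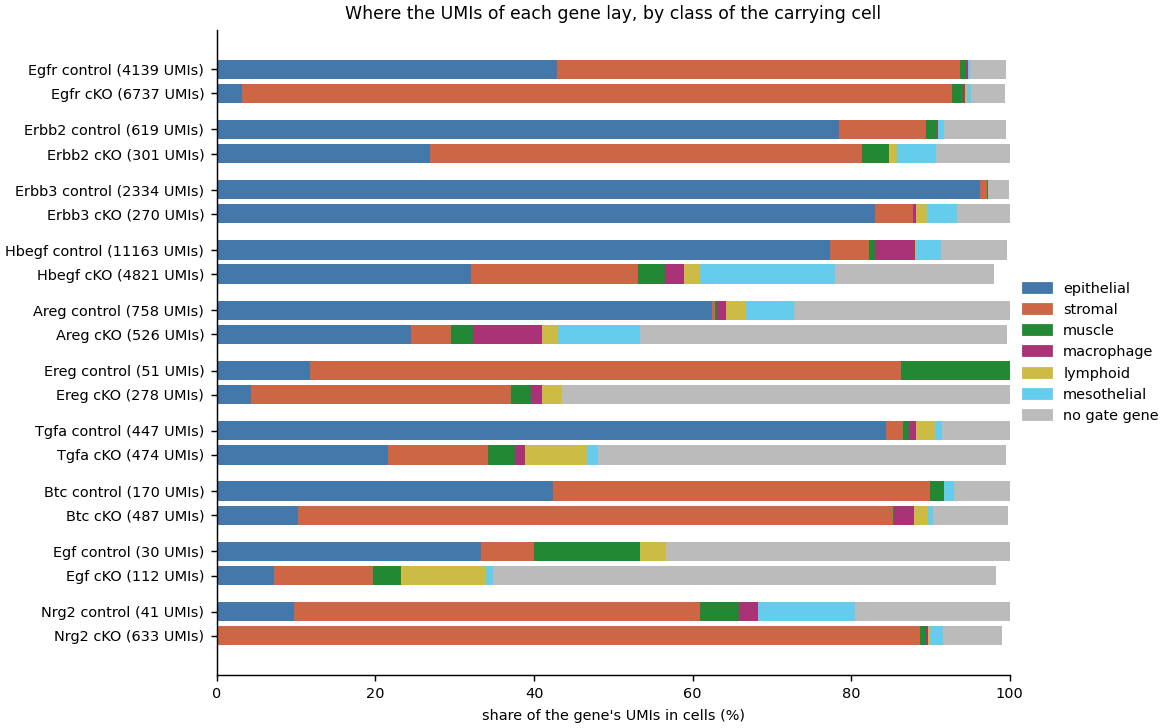
Share of each gene's UMIs in cells (horizontal axis, percent) by class of the carrying cell, in both libraries, with the total in the label; bars stop short of 100 where cells tied between gate genes hold the rest. Epithelial cells held 96.2% of Erbb3 and 77.3% of Hbegf UMIs in control and 83.0% and 32.1% in cKO, where epithelial cells were fewer.

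Nrg2, a neuregulin gene on chromosome 18 (36017652 to 36197380, minus strand), had the largest difference among the members compared in stromal cells. Control stromal cells held 21 UMIs in 17 of 680 cells (2.225 CPM, 1.38 to 3.401) and cKO stromal cells 560 UMIs in 181 of 1591 cells (19.3 CPM, 17.7 to 20.96). The ratio was 8.67 (5.62 to 14.1), and no cKO cell held more than 3.39% of the UMIs. After thinning, 1 of 670 control and 23 of 1580 cKO stromal cells carried a UMI (0.149% and 1.46%). The difference stayed past 2-fold in all 14 other settings, with log2 ratios from 2.01 to 3.46. The cell-free level was 1.55 CPM in control (4 UMIs) and 9.63 CPM in cKO (22 UMIs), also higher, and stromal markers summed to 1811 and 4718 CPM in cell-free barcodes. Their part was not tested, and the cKO stromal level exceeded the cell-free one. Of 13949 genes compared in stromal cells 4.68% were past 2-fold higher and 6.7% lower, against 1 higher (Nrg2) and 1 lower (Erbb3) of 9 members. In the other 5 classes Nrg2 gave at most 11 UMIs in a library.

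Where in the stroma Nrg2 lay was read from cells that also carried 1 of 5 genes, chosen after values were seen. Cells with Cyp26b1, a retinoic acid-degrading enzyme, held 3.48 CPM in control (2 UMIs in 36 cells) and 83.4 CPM in cKO (342 UMIs in 164 cells), a ratio of 23.95 (6.58 to 198.5). Cells with Hsd11b2, an enzyme that inactivates glucocorticoids, held 5.30 and 28.9 CPM (ratio 5.445, 2.62 to 13.6). Cells with Cilp, a matrix protein gene, held 2.29 CPM in control against 2.18 CPM in cKO (ratio 0.952, 0.396 to 2.63). A cell can carry several of these genes, so the groups overlap. Cells with Scara5, a scavenger receptor gene, held 2.86 CPM in control against 3.92 CPM in cKO (1.37, 0.448 to 5.61). Cells with the chemokine gene Cxcl5 held 1.29 CPM (2 UMIs) and 10.9 CPM (60 UMIs), a ratio of 8.43 (2.235 to 71.2). The cKO level thus ranged from 2.18 to 83.4 CPM between these groups, while control levels rested on 2 to 7 UMIs each. Whether the ratio differs between them was not tested. The stroma of both libraries was also made up differently: Hsd11b2 carriers were 75 of 680 control but 668 of 1591 cKO stromal cells, and Cyp26b1 carriers 36 and 164 of them. How far the share of such cells enters the ratio of 8.67 was not tested.

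Other members differed between the same stromal cells. Hbegf was 174 CPM in control against 24.9 CPM in cKO among Cyp26b1 carriers, a ratio of 0.143, and its ratio was 0.302 among Scara5, 0.453 among Cilp, 0.472 among Hsd11b2 and 0.773 among Cxcl5 carriers. It was thus lower in cKO in all 5 overlapping groups, with an interval that held 1 only for Cxcl5 (0.559 to 1.08). All cKO values (19.2 to 41.8 CPM) lay below the cKO cell-free level of 51.6 CPM. Of the control values only that of Cyp26b1 carriers lay above the control cell-free level of 147 CPM, with 25 of its 100 UMIs in 1 cell. Cell-free Hbegf itself had a ratio of 0.352, and its part was not tested. Egfr was close in both libraries among Hsd11b2 (168 and 164 CPM, ratio 0.976, 0.851 to 1.125) and Cilp carriers (ratio 1.07, 0.989 to 1.16). It was lower in cKO among Cyp26b1 (206 and 103 CPM) and Cxcl5 carriers (0.818, 0.739 to 0.907) and higher among Scara5 carriers (192 and 281 CPM). Btc was higher in cKO among Scara5 (8.57 and 24.7 CPM, ratio 2.88, 1.58 to 5.75) and Cilp carriers (1.53, 1.05 to 2.29) and lower among Cxcl5 carriers (32.9 and 19.2 CPM). Its interval held 1 among Hsd11b2 carriers (0.909), and Cyp26b1 carriers held only 0 and 2 UMIs. Among Scara5 carriers 35 of the 107 cKO Btc UMIs were in 1 cell, and control held 12 UMIs. Among Cxcl5 carriers 1 cell held 17 of the 51 control UMIs and 1 cell 35 of the 106 cKO UMIs.

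**Figure D5:**
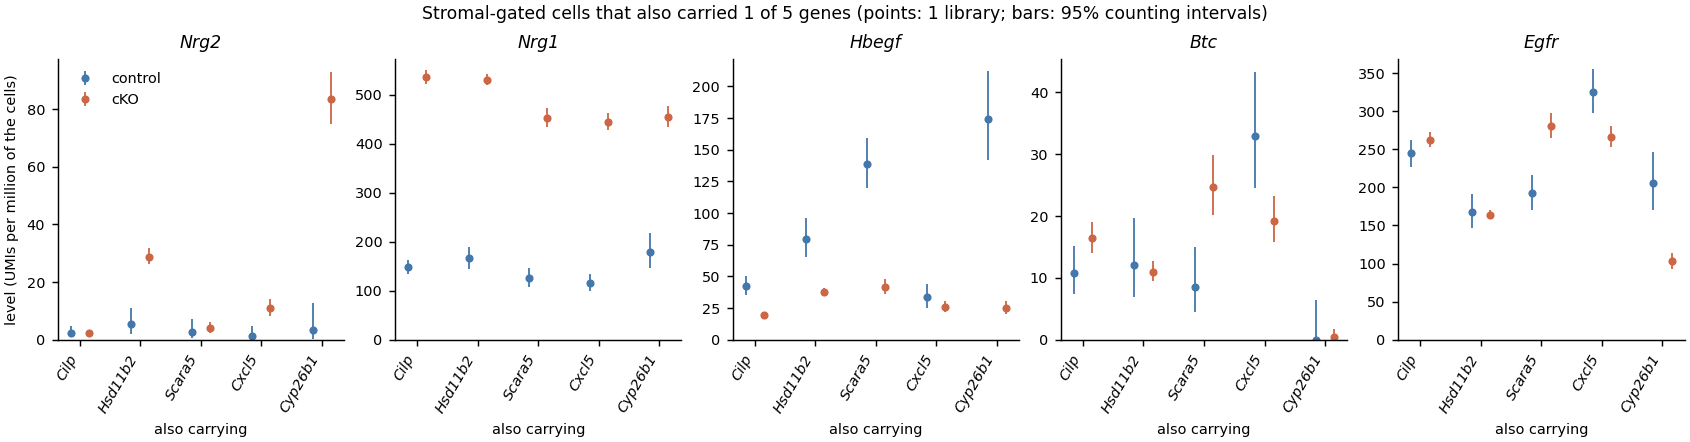
Level (vertical axis, CPM of those cells, starting at 0) of Nrg2, Nrg1, Hbegf, Btc and Egfr in stromal cells that also carried Cilp, Hsd11b2, Scara5, Cxcl5 or Cyp26b1, in control (blue) and cKO (orange); points are 1 library and bars 95% Poisson intervals. Nrg2 in cKO was highest among Cyp26b1 carriers at 83.4 CPM, and Nrg1 was higher in cKO in all 5 groups.

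Nrg1, a neuregulin gene outside the 10, was taken from a list of other family genes. It was 145 CPM in control stromal cells (138 to 153) and 484 CPM in cKO ones (476 to 492), a ratio of 3.33 (3.15 to 3.52). The ratio lay between 2.54 and 3.83 in the 5 stromal groups. Nrg1 was also past 2-fold higher in epithelial (3.53), muscle (8.66), macrophage (3.38) and lymphoid cells (3.10). Its cell-free level was 18.2 CPM in control against 147 CPM in cKO, above the level in the cKO epithelial (9.02 CPM), muscle (50.7 CPM), macrophage (99.6 CPM) and lymphoid (29.9 CPM) cells. In control, macrophages (29.5 CPM) stood above it. In cKO lymphoid cells the 83 Nrg1 UMIs lay in 9 of 453 cells, with 31 of them in 1 cell. The part of cell-free RNA in these 4 classes was not tested. In cKO stroma 89.5% of 181 cells with an Nrg2 UMI also had an Nrg1 UMI, against 74.3% of 1410 cells without, at median depths of 22454 and 15554.5 UMIs. Of the rest of that list, Erbb4 gave 51 and 9 UMIs and Nrg4 28 and 3 UMIs in epithelial cells, and Nrg3 gave 0 UMIs in cells of both libraries.

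Ligand and receptor transcripts were often found in the same epithelial cells. Of 468 control cells with an Egfr UMI, 88.7% also had an Hbegf UMI, against 65.97% of 523 cells without, and in cKO these were 91.4% of 35 and 30.5% of 82. Of those 82 cells, 49 lacked further epithelial markers; among cells that had them, all 32 with Egfr and 63.6% of 33 without held an Hbegf UMI. The cells with Egfr were deeper, with medians of 22695 against 4178 UMIs in control and 52349 against 7712 in cKO. Of 438 control cells with an Erbb3 UMI, 46.1% had an Erbb2 UMI, against 14.3% of 553 without, again at 26092 against 4088 UMIs. In stromal cells the depths were 16568.5 and 5110.5 UMIs in control and 18144 and 9352 in cKO. There 27.4% of 434 control cells with Egfr and 17.5% of 246 without had an Hbegf UMI, and in cKO 18.1% of 1138 and 20.97% of 453. The part of depth and of the make-up of the class in these shares was not tested.

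Genes around the receptors were read from lists chosen with earlier results of these data known. They are set beside the share of all genes in the same class as a description only. In epithelial cells that share was 24.8% past 2-fold higher and 8.06% lower. There 1 of 7 members was past 2-fold, and their median log2 ratio was -0.15, below the 0.40 of all 12997 genes. Scaling by the median ratio instead lowered the epithelial log2 ratios, and Egfr (-1.06) and Erbb3 (-1.34) then both passed 2-fold lower. Of 16 feedback genes, which dampen receptor signalling, 2 were past 2-fold higher, below the share of all genes, and 5 lower, above it, with a median of -0.50. Errfi1, an inhibitor that binds EGFR and ERBB2, was 1471 CPM in control against 430 CPM in cKO (0.292, 0.277 to 0.307), at cell-free levels of 751 and 1040 CPM. The cKO epithelial level lay below the cell-free one, whose part was not tested. Dusp4, an ERK phosphatase, was 82.9 and 15.6 CPM (0.188). Cblb, a ubiquitin ligase, was higher in cKO at 4.82-fold, and Socs5 at 2.27-fold. Of 6 genes for ligand shedding, 1 was higher and 2 were lower, the latter Rhbdf2 (0.352) and Rhbdf1 (0.496), which help the protease ADAM17 reach the surface. Of 18 signal relay genes only Pik3r1, a PI3-kinase subunit, was past 2-fold, at 3.5-fold, with a list median of 0.26.

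Lists of genes that respond to signals were mixed. Of 10 ERK-responsive genes compared in epithelial cells 2 were higher, Ccnd1 (3.53-fold) and Etv5 (2.60-fold), and 0 lower, against the same 24.8% and 8.06% of all genes. The count higher is thus not above that share. Of 7 progesterone-responsive genes 6 were higher and 0 lower, with a median of 2.59 beside 0.40 for all genes. Ihh, the hedgehog ligand of the uterine epithelium, gave 2 UMIs in control and 81 in cKO (204-fold, 54.6 to 1712), and Lrp2 14 and 52 UMIs (18.7-fold). This list was not higher in epithelial cells only: 3 of 3 genes compared were higher in macrophages, 2 of 3 in lymphoid and 2 of 4 in muscle cells. Of all genes there, 11.5%, 6.77% and 5.98% were higher. In stromal cells 1 of 6 was higher and in mesothelial cells 0 of 4, and 0 were lower in any of these classes. Of 15 genes that respond to dissociation stress 1 was higher in epithelial cells, Hspa1a (2.31-fold), and 4 were lower, with Btg2 (0.205) and Junb (0.350) lowest. The median of that list was -0.75, and its part in the members' values was not tested. None of these counts has a replicate, and 52 of the 117 cKO cells lacked further epithelial markers.

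In stromal cells 4.68% of all genes were past 2-fold higher and 6.7% lower. The feedback list had 1 lower of 16, Socs5 (0.442), the relay list 0 of 18 and the shedding list 0 of 6. Ccnd1, a cyclin, was lower (0.391), in the opposite direction to epithelial cells, though the difference between classes was not tested. Hand2, a stromal factor downstream of progesterone, was 4.34 CPM in control against 24.9 CPM in cKO (5.73, 4.18 to 8.06), the 1 of 6 progesterone-responsive genes past 2-fold. In macrophages 1 of 12 feedback genes, Dusp6 (3.89-fold), and 3 of 15 stress genes, with Hspa1a at 3.76-fold, were higher in cKO and 0 lower, against 11.5% and 3.3% of all genes. In lymphoid cells 4 of 14 feedback and 4 of 8 ERK-responsive genes were higher and 0 lower, with Spred1 at 4.03-fold and Ier3 at 4.22-fold, against 6.77% of all genes higher and 2.71% lower. The dissociation stress list there had 5 of 15 higher and 0 lower, with a median of 0.69 beside 0.15 for all genes, and it shares Egr1 (2.50-fold) with the ERK-responsive list. Lymphoid cells also held B or plasma cell markers at 4.83 CPM in control against 409 CPM in cKO, 393 CPM of it Jchain, and stromal markers at 54.3 against 276 CPM. Their part and that of the stress genes was not tested. In muscle 2 of 10 ERK-responsive genes, Fos (0.454) and Egr1 (0.474), were lower and 1, Egr3 (2.10-fold), was higher, and Fos and Egr1 are on the stress list too. Of 16 feedback genes there 2 were higher, Spry1 (2.83-fold) and Cblb (2.22-fold), and 0 lower, against 5.98% and 3.46% of all genes. The stress list in muscle had 2 higher and 3 lower of 15. Markers of other cells differed there as well, with red blood cell ones at 65.7 and 1201 CPM, dendritic ones at 435 and 1125 CPM, lymphatic endothelial ones at 12.9 and 197.5 CPM and epithelial ones at 427 and 22.4 CPM, and their part was not tested. In mesothelial cells 0 of 15 feedback genes was past 2-fold, 1 of 18 relay genes (Sos1, 2.30-fold) and 1 of 10 ERK-responsive genes (Ccnd1, 3.03-fold) were higher and 0 lower, against 4.59% and 2.58% of all genes.

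The genes whose profile was most like that of a member were named over 12 profiles, the 6 classes in both libraries, by Pearson's r of log2(CPM + 5) among 11754 genes. Profiles of 1 library share its depth and its cell-free RNA, so r is a description only. Erbb3 was most like Alox12e and Plek2 (r = 0.99 each) and Vwa2 (0.983), Erbb2 like Bcar1 (0.976), and Egfr like Srgap1 (0.969), Eif4ebp1 (0.961) and Tead1 (0.96). Hbegf was most like Baiap2 (0.93), Mtus1 (0.929) and Wwc1 (0.916), Tgfa like 2900026A02Rik (0.947), and Nrg2 like Olfr1033 (0.924), Col4a4 (0.916) and Map1a (0.913). The highest r was 0.919 for Ereg, 0.894 for Btc, 0.867 for Egf and 0.839 for Areg, whose UMIs rested on few cells. Among the members, Erbb2 and Erbb3 had r = 0.795.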

How the data were processed

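Whole uterus cells of 1 control and 1 cKO library, each pooled from 3 mice, were analysed from the deposited count matrices, which hold whole UMI counts per gene and barcode with no normalization. The authors made these counts with Cell Ranger against mm10; the submitters' processing notes give version 6.1.1, whereas the header of the count files names Cell Ranger 4. The matrices list all barcodes (1214689 and 1359477), so a barcode counted as a cell from 500 detected genes upward, provided that mitochondrial genes held no more than 20% of its UMIs. Total depth was 45035801 UMIs in control and 57145553 in cKO, of which 83.67% and 92.58% lay in cells.

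A cell joined the class whose gate gene had most of its UMIs, and ties (19 and 39 cells) and cells with no gate gene (1201 and 1998) joined none. UMIs were summed per class and divided by the class total (CPM). Intervals are 95% exact Poisson for CPM, exact binomial for shares and exact conditional binomial for ratios, and a count of 0 was bounded at 3 counts. With 1 library per group no test was run and no p-value is given. Shares were also taken after thinning each cell to 1000 UMIs, leaving out shallower cells (7 control and 0 cKO epithelial, 10 and 11 stromal, 3 and 2 macrophage and 2 and 3 lymphoid cells). Doublets were kept: Scrublet's own threshold called 2 and 24 cells, and leaving out scores above 0.25 (36 and 59 cells) was an alternative.

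Named genes are the 10 members, the genes most like them in profile, and, per list and class, at most the 2 highest and 2 lowest past 2-fold with at least 50 UMIs. The members and lists were chosen with earlier results of these data known, and the stromal and ungated sub-groups and the split at 10000 UMIs after values were seen. Positions are from GENCODE M21 (GRCm38), in which 99.61% of listed gene IDs were found, and promoters from RefSeq (GRCm38.p6). The ratio code was tested on simulated data. Alternatives covered cell filters, gates, weighting, thinning, doublets, scaling and the richest cell. Tools were numpy 2.4.6, pandas 2.3.3, scipy 1.17.1, scanpy 1.11.5 and matplotlib 3.10.9.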

Additional observations from a re-analysis of the deposited data

Results flagged for a closer look

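Areg and Hbegf differed between the libraries in opposite directions in different cell classes. For Areg the cKO minus control log2 ratio was 2.957 in macrophage-gated cells, -2.669 in lymphoid cells and -1.083 in mesothelial cells. For Hbegf it was -1.631 in macrophages and 1.049 in lymphoid cells. The difference between classes was not tested, since each class had 1 library per group. In the macrophage, lymphoid and mesothelial classes 1 cell held 40 of 46 cKO, 12 of 19 control and 35 of 46 control Areg UMIs, and 1 lymphoid cKO cell held 53 of 97 Hbegf UMIs.

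Cells with no gate gene lie outside the comparisons between classes, and of the 10 members 4, all ligands, were past 2-fold higher there in cKO and 3 lower, against 5.72% and 10.4% of 13610 genes. Ereg gave 0 UMIs in control and 157 in cKO, at least 22.3-fold higher against a floor of 3 counts (the exact interval of the ratio begins at 17.9), with 97 of the 157 in 1 cell. The ratio was 2.328 for Egf (13 and 71 UMIs), 2.737 for Tgfa (38 and 244 UMIs) and 2.504 for Nrg2 (8 and 47 UMIs). Lower were Hbegf (ratio 0.445, 929 and 970 UMIs), Erbb2 (0.249, 48 and 28 UMIs) and Erbb3 (0.128, 60 and 18 UMIs), and Areg had a ratio of 0.503 (206 and 243 UMIs). These cells were made up differently: 398 of 1201 in control and 82 of 1998 in cKO carried Krt8, an epithelial keratin, and 121 and 465 carried Pecam1, an adhesion gene of endothelial cells and leukocytes. The part of this make-up was not tested.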

How the results depend on the processing

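Over 28 log2 ratios of a gene in a class, 355 values under other settings were computed. Of these, 4 changed the sign of a ratio called past 2-fold, 305 others stayed within the counting interval of the reported ratio and 46 moved outside it. Sign changes of ratios not called are counted among the 305 and 46, such as epithelial Areg (0.457 as reported, -0.882 in cells under 10000 UMIs). Nrg2 in stromal cells and Hbegf in macrophages stayed past 2-fold throughout. The number of epithelial members past 2-fold, 1 as reported, was 2 with at most 10% mitochondrial UMIs, with cells of 1 gate only or without the richest cell (Btc higher, Erbb3 lower). It was 3 with overlapping gates (Nrg2 added), with median-ratio scaling (Egfr added) and with cells weighed equally (Egfr, Erbb2 and Erbb3 lower, Btc not past). It was 4 in cells under 10000 UMIs (Hbegf, Egfr, Erbb2 and Erbb3 lower, with Btc under 20 UMIs), a split chosen after seeing the data. After thinning it stayed at 1, but the gene was Erbb3. The stromal count, 2 as reported, was 1 (Nrg2) after thinning or in cells under 10000 UMIs and 5 without the richest cell (Areg, Tgfa and Nrg2 higher, Ereg and Erbb3 lower). Further settings changed it too, as stromal Areg passed in 3 of its 11 and Tgfa in 2 of its 12 alternatives. The muscle count, 0 as reported, was 4 with overlapping gates. The macrophage count, 2 as reported, was 4 with overlapping gates and 1 (Hbegf) with cells of 1 gate only, after thinning, without the richest cell or in cells under 10000 UMIs. The lymphoid count, 2 as reported, was 1 (Areg) with cells of 1 gate only, a gate at 2 UMIs, equal weighting or median-ratio scaling, 1 (Hbegf) in cells of at least 10000 UMIs, and 0 after thinning or without the richest cell. It stayed at 2 with overlapping gates (Btc higher in place of Hbegf) and in cells under 10000 UMIs (Hbegf lower). The mesothelial count, 1 as reported, was 2 with at most 10% mitochondrial UMIs and 0 with cells of 1 gate only, after thinning or in cells under 10000 UMIs. It stayed at 1, but without Areg, when the richest cell was left out (Egfr higher) and with overlapping gates (Erbb3 lower). Lymphoid Hbegf changed sign to -0.0112 with cells of 1 gate only, -0.161 with equal weighting and -1.26 in cells under 10000 UMIs. Mesothelial Areg changed to 0.162 without the richest cell. Thinning, the richest cell and the split by depth leave fewer UMIs by construction, and the cause of the other changes was not tested. No paired analysis was possible because each group is 1 library. Depth limits most of all the 32 combinations with fewer than 20 UMIs, which were not compared.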

Other observations

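Cells with no gate gene made up 32.88% of control and 40.36% of cKO cells. They were read by 1 further gene each, chosen after values were seen, and a cell can carry several. Among carriers of Pecam1, an adhesion gene of endothelial cells and leukocytes, Tgfa was 5.89 CPM in control (6 UMIs in 121 cells) and 29.2 CPM in cKO (122 UMIs in 77 of 465 cells), a 4.96-fold ratio (2.21 to 13.8). Among carriers of the leukocyte gene Ptprcap it was 6.55 and 25.9 CPM (2 and 35 UMIs, 3.96-fold, 1.02 to 34.0), and lymphoid-gated cells also held Pecam1 (86.8 and 84.3 CPM). Areg in Pecam1 carriers was 74.6 and 17.5 CPM, with 38 of the 76 control and 49 of the 73 cKO UMIs in 1 cell each. Among carriers of Flt3, a cytokine receptor of dendritic cells, Egf was 10.2 and 30.2 CPM (5 and 58 UMIs, 2.95-fold, 1.195 to 9.43) and Areg 125 and 16.1 CPM (0.129, 0.0811 to 0.2025). Nearly all cKO Ereg UMIs of ungated cells, 155 of 157, lay in 6 cells that carried Dcn, a stromal matrix gene.

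Carriers of Krt8, an epithelial keratin, that had no Epcam UMI numbered 398 in control and 82 in cKO. In them Erbb3 was 37.5 CPM in control (50 UMIs) and 2.18 CPM in cKO (1 UMI), and Egfr 86.3 and 19.6 CPM. The cell-free intervals of Erbb3 held these values in both libraries (25.3 to 39.5 CPM in control, 1.80 to 7.48 CPM in cKO), and the Egfr value of cKO lay below its cell-free level of 67.4 CPM. The part of cell-free RNA was not tested.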
